A study of Drosophila melanogaster with 2 samples.

Results

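The mitochondrial ribosomal protein genes of Drosophila melanogaster were examined for binding of CG16779-eGFP, the CG16779 protein joined to enhanced green fluorescent protein. Genes were chosen by symbol: the 73 genes that start with mRpL or mRpS, of 13968 protein-coding genes on the chromosome arms. Of the 73, 47 encode proteins of the large subunit (mRpL) and 26 of the small subunit (mRpS). The data are peak lists from chromatin immunoprecipitation with an anti-GFP antibody, followed by sequencing, of whole embryos aged 8 to 24 hours from the strain CG16779-GFP. There was 1 group with 2 biological replicates, and no group without the fusion was analysed here. The labels do not give the promoter that drives the fusion, and whole embryos mix all cell types, so the cells behind a peak cannot be told apart. The lists hold no read counts, so the depth is unknown and no test between conditions or gene lists was made.

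Mitochondrial ribosomes translate the few messenger RNAs made from mitochondrial DNA, which encode subunits of the respiratory chain and of the ATP synthase. Their RNA comes from the mitochondrial genome, but all of their proteins in animals are encoded in the nucleus, translated in the cytoplasm and imported. Some of these proteins have counterparts in bacterial ribosomes and share their numbers, whereas others are found in mitochondrial ribosomes alone. In Drosophila, nuclear genes for mitochondrial and other housekeeping proteins often lie head to head with a neighbour, so that 1 short stretch of DNA serves as the promoter of both.

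A peak of CG16779-eGFP lay at the promoter of 13 of the 73 genes (17.8%), compared with 11.3% of all protein-coding genes. A gene was counted as bound when the summit of a peak lay within 500 bp of any of its annotated transcription start sites (TSSs). The peaks used for this were those of the conservative list, 2516 peaks on the arms whose irreproducible discovery rate (IDR) between the replicates was at most 0.01. The IDR is the estimated share of peaks of that rank or better that would not reproduce. The bound genes were mRpL4, mRpL17, mRpL20, mRpL21, mRpL23, mRpL24, mRpL32, mRpL41, mRpL53, mRpS2, mRpS6, mRpS10 and mRpS23. In the list that the authors made from each replicate alone, 8 of the 73 genes were bound in replicate 1 and 8 in replicate 2 (11.0% each). The same lists gave 6.47% and 6.62% of all protein-coding genes. In both lists, 7 members were bound (9.59%), and the matching share of all protein-coding genes was not counted. In the list made from pooled reads, 14 members were bound (19.2%, against 11.9% of all genes), the additional gene being mRpS26.

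The 13 bound genes were split into 4 with very strong peaks and 9 with moderate or weak ones. The signal of a peak is the authors' peak caller's own value, on a scale not given in the sources used here, and is printed as replicate 1, replicate 2 and mean ± SD (n = 2). Positions are on dm6.

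The strongest peak lay upstream of mRpS23, which encodes a small subunit protein specific to mitochondria (FBgn0260407, 2L, 13835347 to 13835585), with signals of 444 and 409 (426 ± 24.99). It ranked 4 among the 2516 peaks. The peak at mRpL41, which encodes a large subunit protein specific to mitochondria (FBgn0034001, 2R, 15217638 to 15217855), had signals of 337 and 415 (376 ± 54.6). At mRpS10, which encodes a protein of the head of the small subunit (FBgn0038307, 3R, 15229440 to 15229629), the signals were 314 and 347 (331 ± 23.4). At mRpL23, whose bacterial counterpart stands at the exit of the nascent chain tunnel (FBgn0035335, 3L, 2373520 to 2373692), they were 271 and 228 (249 ± 29.8). These 4 peaks were high in both replicates, ranked between 4 and 20 in the conservative list, and stood in the top 1% of genes by signal, with no other member there. The median mean signal of the conservative list was 42.9.

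The next strongest member peak was weaker by a wide margin. At mRpL20, whose bacterial counterpart binds ribosomal RNA early in assembly (FBgn0036335, 3L, 13018025 to 13018314), the signals were 61.5 and 101 (81.3 ± 27.9). At mRpL24 (FBgn0031651, 2L, 4945377 to 4945666) they were 63.2 and 92.6 (77.9 ± 20.8). At mRpL53 (FBgn0050481, 2R, 13953965 to 13954254) they were 71.9 and 48.2 (60.1 ± 16.8). These 3 peaks were called in the own list of each replicate, as were the 4 strongest, but their replicates differed more: the ratio of replicate 2 to replicate 1 was 1.64, 1.46 and 0.670, against 0.844 to 1.23 for the 4 strongest.

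The remaining 6 peaks lay near or below the median of the conservative list. At mRpS6 (FBgn0035534, 3L, 4364331 to 4364620) the signals were 45.1 and 51.7 (48.4 ± 4.68), and the peak was in the own list of replicate 2 alone. At mRpS2 (FBgn0031639, 2L, 4850463 to 4850752) they were 47.6 and 44.1 (45.8 ± 2.48), with the peak in neither own list. At mRpL21 (FBgn0036853, 3L, 19255131 to 19255420) they were 46.6 and 40.1 (43.4 ± 4.55), with the peak in the own list of replicate 1 alone. Those 3 stood just above the median of 42.9. The last 3 stood below it and were called in neither own list. They were at mRpL4, whose bacterial counterpart reaches into the exit tunnel (FBgn0001995, 2L, 16329045 to 16329334, 44.6 and 33.1, 38.9 ± 8.14), at mRpL32, a protein that is cut to its mature form by a mitochondrial protease in yeast and mouse (FBgn0039835, 3R, 31252600 to 31252889, 33.0 and 40.3, 36.6 ± 5.17), and at mRpL17 (FBgn0035122, 3L, 264904 to 265193, 32.6 and 35.9, 34.3 ± 2.34). Over the 13 peaks, replicate 2 was the higher in 7, so neither replicate stood above the other throughout.

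**Figure D1:**
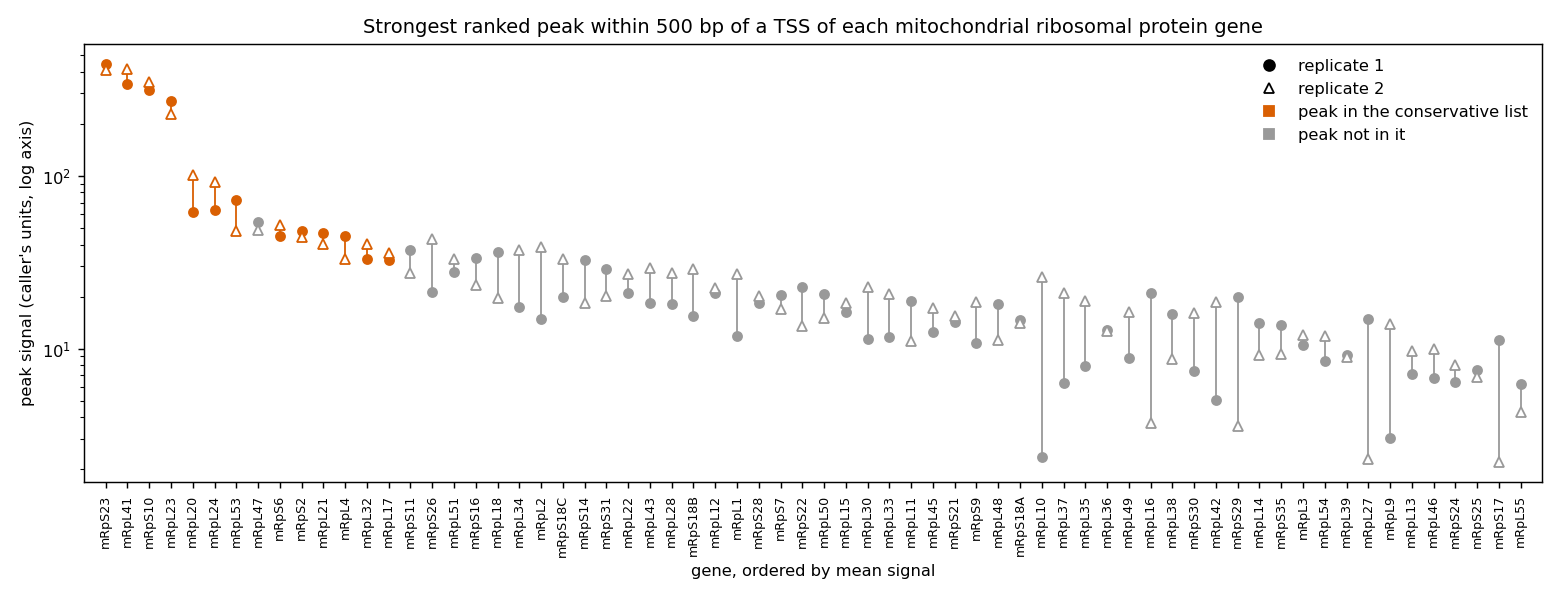
Signal of the strongest ranked peak within 500 bp of a TSS for the 66 genes that had one, on a log axis, with filled circles for replicate 1 and open triangles for replicate 2, joined by a line for each gene. Genes are ordered by mean signal. The 4 on the left, from mRpS23 to mRpL23, lie between 228 and 444 in both replicates, and in this order mRpL47 is the single gene not in the conservative list that stands among the bound ones.

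Most of the genes had no more signal than a typical gene. Beyond the conservative list, the ranked list gives every peak that the authors' caller matched between the replicates, with no threshold on the IDR. Of the 73 genes, 66 had such a peak no more than 500 bp from a TSS, as had 11575 of the 13968. For mRpL19, mRpL40, mRpL44, mRpL52, mRpS5, mRpS33 and mRpS34 there was none. The strongest ranked peak of each of the 66 genes had a median signal in the pooled reads of 33.7, with quartiles of 21.3 and 61.4. Over the 11575 genes the median was 36.1, with quartiles of 24.98 and 51.5. The members' median thus lay slightly below that of all genes, and their quartiles lay further apart. The order of the medians turned with a limit of 1000 bp to a TSS (47.6 against 41.8 over all genes) and in the list without replicate 1 (22.4 against 19.97). With a limit of 250 bp both medians were 33.3. In the ranking of all genes, 36 members stood at or below the median and 30 above it, with 10 in the top 10%. By replicate, the members' medians were 18.1 in replicate 1 and 19.8 in replicate 2, against 18.8 and 18.4 over all genes.

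**Figure D2:**
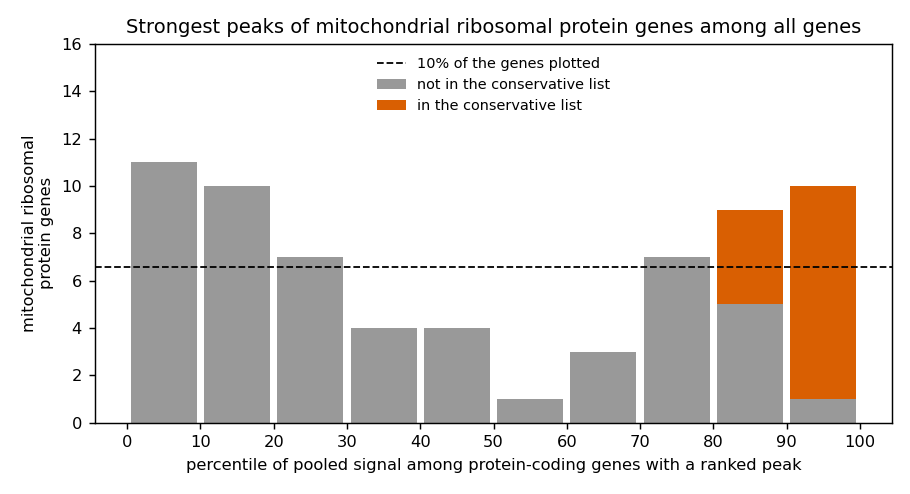
Number of mitochondrial ribosomal protein genes (vertical axis) in each 10% of the ranking of the 11575 protein-coding genes by the pooled signal of their strongest ranked peak (horizontal axis, percentile), with genes in the conservative list in orange and the others in grey. The dashed line marks 10% of the 66 genes plotted, and the 10 members in the top 10% include 4 in the top 1%.

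Of the 60 unbound genes, 53 had a ranked peak, and their signals reached into the range of the bound ones. By pooled signal, mRpL47, mRpS26, mRpL51 and mRpS11 ranked above the bound mRpL32. These strongest ranked peaks had a median mean signal of 14.8, from 5.29 to 51.0. The 5 with the highest pooled signal were mRpL47, mRpS26, mRpL51, mRpS11 and mRpL34. At mRpS11 (3R, 17072553 to 17072842) the signals were 37.3 and 27.3 (32.3 ± 7.10), and the IDR of 0.0113 missed the threshold by little. At mRpL51 (2L, 8516970 to 8517259) they were 27.9 and 33.1 (30.5 ± 3.71), with an IDR of 0.0140. Just inside the threshold stood mRpL17, at an IDR of 0.00546. The peak of mRpS26 (3L, 18106124 to 18106413, 21.3 and 42.8, 32.0 ± 15.2, IDR 0.0490) and that of mRpL34 (2R, 16098561 to 16098850, 17.4 and 37.1, 27.3 ± 13.9, IDR 0.155) were about as strong in replicate 2 as bound members, but weaker in replicate 1.

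The peak at mRpL47 passed the IDR threshold and yet was absent from the conservative list. It lay 99 bp upstream of the TSS of mRpL47, within 5' UTRs of CG8176 and of Kdm3, a histone demethylase gene (3R, 9515862 to 9516151). The nearest 5' end of these divergent partners was also 99 bp from that of mRpL47, so the summit lay at it. The peak cannot be assigned to mRpL47 rather than to its partners. Its signals were 53.7 and 48.3 (51.0 ± 3.85), with a mean above that of 6 bound members, and its IDR was 0.000881. It was also absent from the pooled list and from the own list of each replicate. Of 2619 ranked peaks on the arms with an IDR of at most 0.01, 103 were absent from the conservative list in the same way. With these added, a choice made after seeing the data, 14 members and 11.7% of all protein-coding genes were bound. The step that removed these peaks was not given in the sources used here.

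Bound genes were found in both subunits. Of the large subunit genes 9 of 47 were bound (19.1%) and of the small subunit genes 4 of 26 (15.4%). Of the 42 genes whose numbers follow bacterial ribosomal proteins (up to 36 in the large and 21 in the small subunit), 10 were bound (23.8%). Of the 31 with higher numbers, 3 were bound (9.68%), namely mRpL41, mRpL53 and mRpS23. Those 31 include mRpL47 and mRpS24, whose products have bacterial counterparts under other numbers. Neither difference was tested. Of the 4 strongest peaks, 2 were counted for the 31 genes with higher numbers, but that of mRpS23 lay nearer to the TSS of CenG1A. By arm, 5 of 17 members on 3L, 4 of 12 on 2L, 2 of 12 on 2R, 2 of 21 on 3R and 0 of 11 on X were bound. Of all protein-coding genes, 12.4% were bound on 3L, 320 of 2657 on 2L, 11.7% on each of 2R and 3R, and 8.56% on X.

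Mitochondrial ribosomal protein genes lay in divergent pairs in a larger share than all genes, and 12 of the 13 bound members did. In a divergent pair, the 5' ends of 2 protein-coding genes on opposite strands lie within 1000 bp of each other and the genes point apart. Of the 73 genes 56 were in such a pair (76.7%), compared with 4650 of all 13968 (33.3%). With pairs defined within 500 bp, the shares were 69.9% and 24.9%. Among members in pairs 12 of 56 were bound (21.4%), beside 17.0% of all genes in pairs. Among the other members 1 of 17 was bound (5.88%), beside 8.50% of all genes outside pairs. That member was mRpL53, whose TSS lay 170 bp from a TSS of AGO1 on the opposite strand. Pairs were defined by the 5' end of the whole gene, so mRpL53 and AGO1 were not counted as one. Set beside genes of the same promoter arrangement, the share of bound members was thus closer to the background than the comparison of 17.8% with 11.3%.

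**Figure D3:**
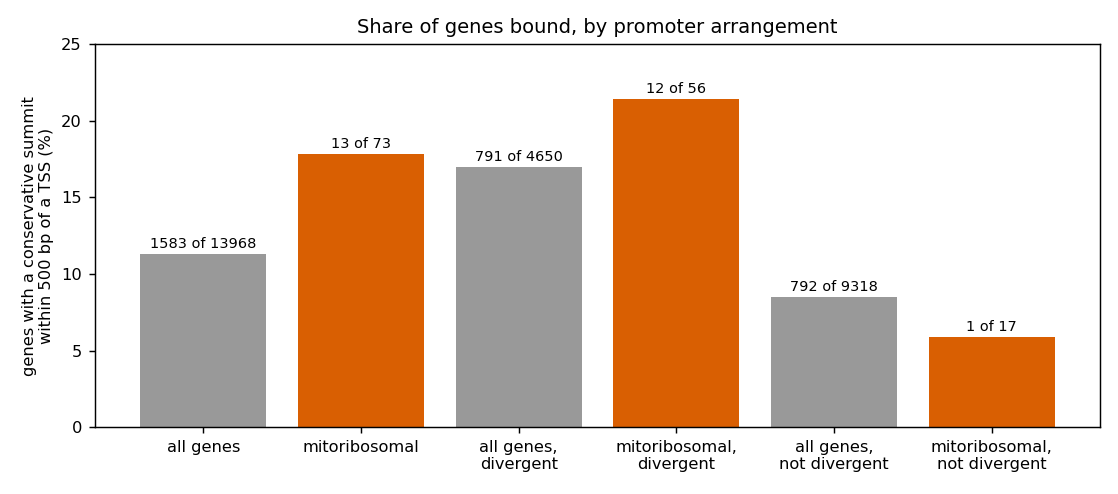
Share of genes with a conservative summit within 500 bp of a TSS (vertical axis, percent), for all protein-coding genes in grey and mitochondrial ribosomal protein genes in orange, over all genes, genes in divergent pairs and other genes. The numbers above the bars give bound genes and genes in all, and the step from 17.8% to 11.3% over all genes compares with 21.4% and 17.0% within pairs.

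At the 12 bound members in pairs, the summit lay between the 5' ends of the pair in 10. The same held for 443 of 791 bound protein-coding genes in pairs (56.0%). At the 42 unbound members in pairs that had a ranked peak, the strongest peak lay between the 5' ends in 13 (31.0%), as it did at 760 of 3318 such unbound protein-coding genes (22.9%). The exceptions among bound members were mRpL17 and mRpL23, whose summits lay downstream of their own TSS. Of the 13 summits 10 were intergenic. That of mRpL53 lay in an intron of AGO1, the Argonaute of the microRNA pathway, that of mRpL23 in its own 5' UTR and that of mRpL17 in its own coding sequence. Summits of bound members lay a median of 139 bp from the member's nearest TSS, from 41 to 398 bp, and 11 of the 13 lay upstream. For all 1583 bound protein-coding genes the median was 101 bp, and their shares of upstream and of intergenic summits were not counted.

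In 11 of the 13 cases another gene had a TSS within 500 bp of the same summit. In 6 of them that gene was the nearer one. How often another TSS lay so near was not counted over all bound protein-coding genes. The mRpS23 summit lay 398 bp upstream of mRpS23 and 94 bp upstream of CenG1A, which encodes an Arf GTPase-activating protein. The mRpL20 summit lay 303 bp upstream of mRpL20 and 96 bp upstream of Icmt, the isoprenylcysteine carboxyl methyltransferase gene. For mRpL24 the distances were 161 bp and 57 bp to betaggt-I, which encodes an enzyme subunit of protein prenylation. For mRpL21 they were 215 bp and 64 bp to rept, the gene of the ATPase Reptin. For mRpS2 they were 189 bp and 33 bp to Mon1, which acts in endosome maturation. The mRpS10 summit lay nearly midway, 139 bp from mRpS10 and 118 bp from the arginine methyltransferase gene Art3. In these 6 pairs the peak cannot be assigned to the ribosomal gene rather than to its partner. Nor can distance alone assign it where another TSS lay near the summits of mRpL23, mRpL32 and mRpL53. With each peak counted for its nearest gene alone, 7 of 73 members were bound (9.59%), beside 8.98% of all protein-coding genes. Most of the difference between 17.8% and 11.3% was thus no longer seen. The 7 include mRpL53, whose distance of 85 bp was tied with those of AGO1 and CG33155.

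At the other 7 peaks the member was the nearest protein-coding gene, tied at mRpL53 with AGO1 and CG33155. The mRpL23 summit lay 41 bp downstream of a TSS of mRpL23 and 91 bp upstream of CG9004. The mRpL32 summit lay 127 bp upstream of mRpL32 and 137 bp upstream of qless, which encodes an enzyme that makes the side chain of ubiquinone. The mRpS6 summit lay 74 bp upstream of mRpS6 and 374 bp from Cip4, the gene of a membrane-bending adaptor protein. The mRpL53 summit lay 85 bp upstream of a TSS that mRpL53 shares with CG33155, and also 85 bp upstream of a TSS of AGO1. The mRpL41 summit lay 127 bp upstream of mRpL41, with lncRNA:CR44463 at 451 bp. At mRpL4, 58 bp upstream, and at mRpL17, 270 bp downstream, no other gene had a TSS within 500 bp of the summit.

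**Figure D4:**
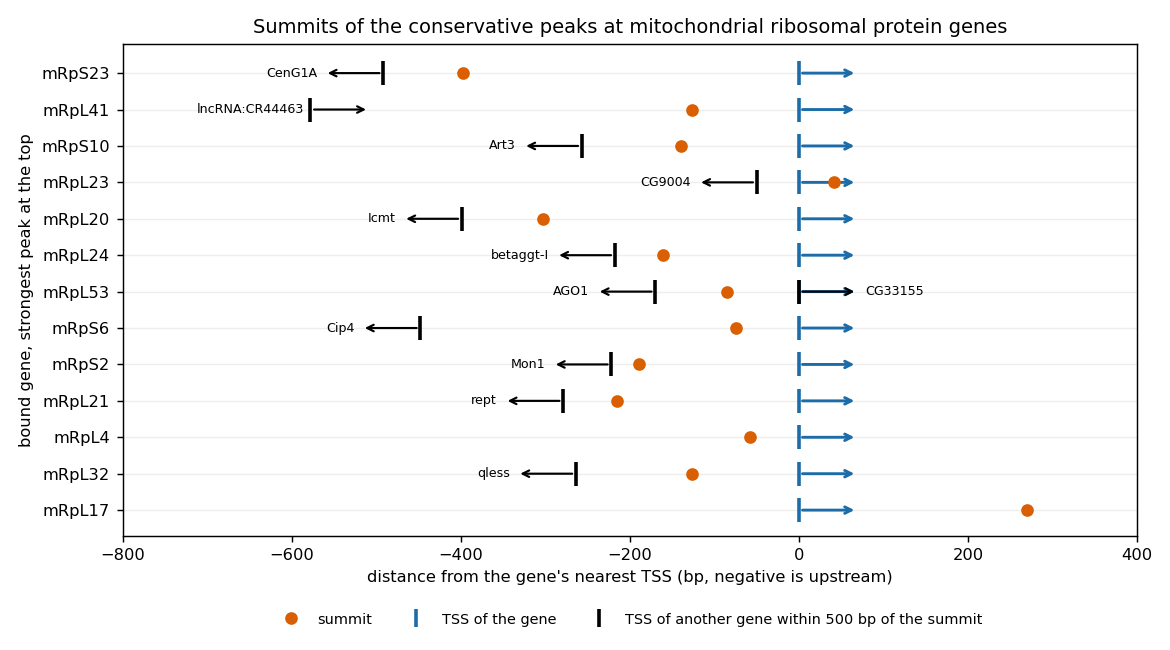
Position of the summit (orange) at each of the 13 bound genes, ordered by mean signal from top to bottom, relative to the gene's nearest TSS (blue, at 0 bp), with the TSSs of other genes within 500 bp of the summit in black and arrows for the direction of transcription. Summits lie 41 to 398 bp from the TSS of the member, and 10 of the 12 in divergent pairs lie between the 5' ends of the pair.

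The DNA under the strongest peaks was rich in A and T. To show this, the bases within 50 bp of the summit are given for 4 peaks between divergent genes and for the weaker mRpL21, on the plus strand with the summit at base 51, and 29 bases centred on the summit for mRpL23. Capitals mark matches to the motifs searched. Of the stretches shown, that of mRpL21 held one, the core promoter element Motif 7. The sequence is that of the RefSeq genome, release 6.
mRpS23, 2L, 13835420 to 13835520: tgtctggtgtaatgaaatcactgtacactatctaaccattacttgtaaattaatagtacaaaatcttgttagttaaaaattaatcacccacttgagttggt
mRpS10, 3R, 15229476 to 15229576: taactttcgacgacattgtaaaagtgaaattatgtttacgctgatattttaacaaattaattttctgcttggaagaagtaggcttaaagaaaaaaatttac
mRpL20, 3L, 13018120 to 13018220: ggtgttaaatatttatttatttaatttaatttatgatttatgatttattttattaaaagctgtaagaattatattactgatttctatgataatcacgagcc
mRpL24, 2L, 4945472 to 4945572: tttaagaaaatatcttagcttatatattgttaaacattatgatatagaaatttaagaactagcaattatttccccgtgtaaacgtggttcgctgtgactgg
mRpL23, 3L, 2373623 to 2373651: tttaccacttttaaaaaataatatcacta
mRpL21, 3L, 19255226 to 19255326: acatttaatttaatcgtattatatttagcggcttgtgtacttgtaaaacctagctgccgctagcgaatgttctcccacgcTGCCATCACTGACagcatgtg

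At the strongest member peaks, the GC content of the 101 bp around the summit was 29.7% at mRpS23, 26.7% at mRpS10, 28.7% at mRpL23, 24.8% at mRpL41, 18.8% at mRpL20 and 29.7% at mRpL24. At the weaker mRpL21 it was 42.6%. Over the 13 bound members the median was 32.7%, from 18.8% to 57.4%, and 10 of the 13 lay below the median of 45.5% of all 1316 conservative peaks at protein-coding promoters. The exceptions were mRpL4 (46.5%), mRpL17 (50.5%) and mRpL53 (57.4%). The 14 promoter peaks at least as strong as that of mRpL23, 4 of them at members, had a median GC content of 29.2%, and the 1302 weaker ones 45.5%, in groups formed after seeing the data. The 10 of the 14 that were at no member had a median of 32.2%, from 18.8% to 41.6%. In the 300 bp from 250 bp before to 50 bp after the 5' end of the gene, GC content was 33.0% in bound and 35.3% in unbound members (medians), against 38.0% over all protein-coding genes.

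**Figure D5:**
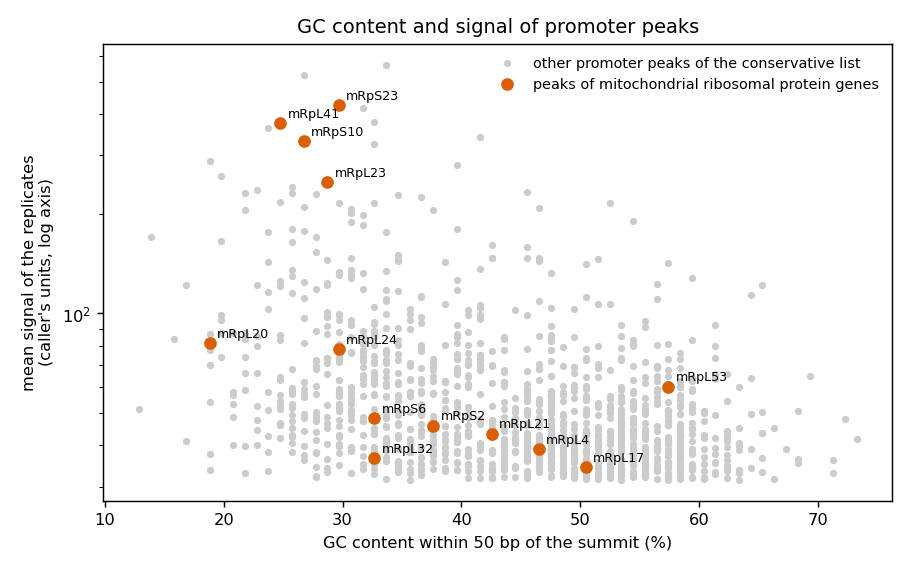
Mean signal of the replicates (vertical log axis) against GC content within 50 bp of the summit (horizontal axis, percent) for the 1316 conservative peaks at protein-coding promoters, with those of mitochondrial ribosomal protein genes in orange. The 4 strongest members lie between 24.8% and 28.7% or, for mRpS23, at 29.7% GC.

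Known core promoter elements were searched for in the promoters of the family. In the same 300 bp windows, searched on both strands, the DNA replication-related element TATCGATA (DRE), which the factor DREF binds, was found in 15 of 73 members (20.5%) and in 9.36% of all protein-coding genes. Motif 7 was present in 17 members (23.3%) and in 9.28% of all genes, and Motif 1 in 6 members (8.22%) and in 4.49%. The GAGA element GAGAG was present in 12 members (16.4%) and in 29.7% of all genes. The TATA box sequence TATAAA was about as frequent in members (46.6%) as in all genes (45.8%). It was counted at any position in the window and on either strand, so these matches need not be working TATA boxes. Short sequences such as this one, the GAGA element and the BEAF-32 core can also occur by chance. How often they would do so in these windows was not counted. CGATA, the core of the BEAF-32 site, which overlaps the DRE, was present in 43 members (58.9%) and in 47.3% of all genes. CCGGAAG, the core of ETS factor sites, was found in 0 members and in 1.09% of all genes. The E box CACGTG was present in 5 members (6.85%, against 4.20%), GCGCATGC, a site of the factor ewg, in 1 (1.37%, against 1.05%), a tract of 8 A in 11 (15.1%, against 15.9%), and Motif 6 in 3 (4.11%, against 2.23%). Windows of divergent partners overlap, so these counts are not independent.

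Of the 15 members with a DRE, 14 had one centred within 50 bp of the 5' end of the gene (93.3%), beside 806 of the 1307 protein-coding genes with a DRE (61.7%). In 5 of the 15 the member was bound, namely mRpL4, mRpL17, mRpL20, mRpL32 and mRpS23. The share bound among all 1307 genes with a DRE was not counted, so a link between the DRE and binding cannot be read from this. Within 50 bp of the 13 summits the DRE was present at 0, and it was rare at all promoter peaks too (38 of 1316, 2.89%), so that nothing about the members can be read from this count. Motif 7 was present there at mRpL21 and Motif 6 at mRpL41, against 4.33% and 0.228% of promoter peaks. TATAAA was present at mRpL23, GAGAG at mRpL23 and mRpL53, CGATA at mRpL4 and mRpL17, and a tract of 8 A at mRpL41. These were present at 12.2%, 15.2%, 18.1% and 4.18% of promoter peaks. The distance from the centre of the DRE to the summit was 81 bp at mRpL4, 104 bp at mRpL32, 270 bp at mRpL17 and 297 bp at mRpL20. At mRpS23, which has a DRE 5 bp upstream and another 205 bp upstream of its 5' end, it was 393 and 193 bp. The 41 bases around these elements, except the one at mRpL4, are given on the strand of the gene to show how near the start of the gene they lie, with the DRE in capitals.
mRpS23, 5 bp upstream, 2L, 13835057 to 13835097: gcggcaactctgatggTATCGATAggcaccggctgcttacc
mRpS23, 205 bp upstream, 2L, 13835257 to 13835297: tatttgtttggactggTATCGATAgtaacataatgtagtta
mRpL20, 6 bp upstream, 3L, 13017853 to 13017893: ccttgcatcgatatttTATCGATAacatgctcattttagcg
mRpL32, 23 bp upstream, 3R, 31252829 to 31252869: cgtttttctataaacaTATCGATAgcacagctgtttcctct
mRpL17, at the 5' end, 3L, 264759 to 264799: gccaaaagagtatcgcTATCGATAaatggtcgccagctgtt

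The small subunit genes examined under other names, tko and bonsai, were both unbound. Of the pair, the stronger peak was at tko, which encodes the counterpart of a bacterial decoding-centre protein (X, 2443879 to 2444168), 48 bp upstream of its TSS, with signals of 37.7 and 24.5 (31.1 ± 9.31) and an IDR of 0.0217. At bonsai the strongest ranked peak had signals of 4.86 and 12.3 (8.59 ± 5.27). Among 45 nuclear genes for mitochondrial DNA maintenance, gene expression and related functions, these 2 ribosomal protein genes included, 3 were bound (6.67%, against 11.3% of all genes). They were PNPase, the mitochondrial polynucleotide phosphorylase (3R, 31404533 to 31404780, 328 and 430, 379 ± 72.1), GatA, a subunit of the mitochondrial glutamyl-tRNA amidotransferase, 113 bp upstream of its TSS (3R, 19028908 to 19028997, 99.6 and 98.4, 99.0 ± 0.865), and mtSSB, the mitochondrial single-stranded DNA-binding protein, 368 bp upstream (3R, 16205473 to 16205762, 56.6 and 104, 80.4 ± 33.7). A TSS of P5cr also lay within 500 bp of the GatA summit, so that peak may belong to either gene. The aminoacyl-tRNA synthetases, translation factors and mitochondrial transcription factors among the 45 were unbound in the conservative list, and mtTFB1 was bound in the own list of replicate 2 alone. The median pooled signal of the strongest ranked peak was 30.4 over the 42 genes of this list that had one.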

How the data were processed

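Chromatin immunoprecipitation with an antibody against GFP was done on embryos of 1 group with 2 biological replicates. Peak lists were used as deposited. Per the labels, chromatin was sheared to 200 to 800 bp and peaks are on dm6. An aligner or peak caller is not given in the sources used here. The signal is the deposited value per peak, in pooled reads or in 1 replicate, with an unstated scale. The deposited −log10 of the IDR gave the threshold of 0.01. In the ranked list, 2 unnamed columns held the signals of the replicates. They were assigned by exact matches of start, end and signal to the own ranked lists, with 106023 matches for replicate 1 and 106751 for replicate 2 among 135475 peaks, and 0 for the reverse assignment.

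Genes were taken from Ensembl release 115, without transposable elements, and sequence from release 6 of the genome. A ranked peak was taken by highest pooled signal. Summits within 100 bp counted as the same peak between lists. All counts are descriptive and no test was run. The members, lists and motifs were chosen with earlier results of these data known. Every bound member was named, as were the 5 unbound members of highest pooled signal, tko, bonsai and the bound genes of the list of other mitochondrial genes. Of that list's 62 entries, some alternative spellings of 1 gene, 17 had no match. The assignment of peaks was tested on simulated data. Python 3.11.15, pandas 2.3.3 and NumPy 2.4.6 were used. Sequence from arm 2R is not reported here.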

Additional observations from a re-analysis of the deposited data

How the results depend on the processing

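The number of bound members was 13 and lay between 9 and 14 with the pooled list, the stronger 50% of conservative peaks, limits of 250 and 1000 bp to a TSS, the 5' most TSS alone and the absent peaks added, and rose to 18 with an IDR of at most 0.05. Leaving out a replicate gave 8 and 8, and counting each peak for the nearest gene alone gave 7. For the large subunit (9 bound) leaving out a replicate gave 5 to 6 and the stronger 50% of peaks 5. For the small subunit (4 bound) the range without a replicate was 2 to 3, an IDR of at most 0.05 gave 7 and the nearest gene alone 1. Over all protein-coding genes the bound share moved in the same directions. It was lower without a replicate, with the stronger 50% of peaks and for the nearest gene alone, and higher with the looser IDR. These subunit counts therefore do not show that the subunits were less stable than other genes. In percent of members and of all protein-coding genes, the shares were 12.3% and 7.07% for the stronger 50%, 13.7% and 9.25% at 250 bp, 17.8% and 14.2% at 1000 bp, 17.8% and 9.68% for the 5' most TSS, and 9.59% and 8.98% for the nearest gene. The looser IDR gave 24.7% of members, beside 2651 of 13968 genes. Bound members in divergent pairs numbered 10 to 13, and bound protein-coding genes in pairs were not counted under these other settings. The members' median pooled signal of 33.7 became 47.6 at 1000 bp (all genes 41.8), 35.0 in the ranked list from pooled reads (all genes 36.1) and 20.2 to 22.4 in the lists of single replicates (all genes 20.4 and 19.97). The median distance of 139 bp became 150 bp with the pooled list. The causes of these shifts were not tested. No paired analysis was possible because there was 1 group. Read depth is unknown. Of the 13 peaks, 4 were in neither own list.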

Other observations

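The signals of the replicates differed most, by their ratio, at unbound members. At mRpL10 the signal was 2.35 in replicate 1 and 26.0 in replicate 2, a ratio of 11.1, the highest of the 66 members with a ranked peak. The lowest ratio, 0.153, was at mRpL27 (14.9 in replicate 1 and 2.28 in replicate 2). At both genes the lower signal was near the lowest over all protein-coding genes, 2.00 in each replicate. Over all protein-coding genes the ratio ran from 0.0737 to 14.3. The highest pooled signals among the 11 members on X were at mRpL22 (20.9 in replicate 1 and 27.0 in replicate 2) and mRpS14 (32.7 and 18.3). None of the 11 was bound, beside 8.56% of all protein-coding genes on X, and with so few genes no difference can be read from this.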
